A study of Mus musculus with 50 samples.

Results

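The 8 genes described here are Dlx1, Dlx2, Dlx5, Dlx6, Gsx2, Lhx6, Gad1 and Gad2, which mark the ventral telencephalon and the GABAergic neurons that arise there. They were chosen by name, and all 8 were among the 11708 genes of the count table. RNA was sequenced from 18 whole brains of E13.5 mouse embryos, labelled as strain FVB/ANTJ, in 6 groups of 3. The samples belong to a comparison for mutations of Gtf2i, called the gtf2i cross here, and a comparison for mutations of Gtf2ird1, called the ird1 cross, each with its own wild-type embryos. In the gtf2i cross the genotypes were wt, gtf2i and gtf2i/gtf2i, and in the ird1 cross they were wt, ird1 and ird1/ird1. The labels do not describe the alleles or give the sex of the embryos. A single allele name was read as 1 mutant allele and a doubled name as 2. The labels do not state that the 3 samples of a group came from separate litters or cultures, so p-values measure the spread between these samples.

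Gsx2 is a homeobox factor of ventral telencephalic progenitors, and the Dlx genes encode homeobox factors that act after it as progenitors leave division and become GABAergic neurons. Dlx1 and Dlx2 are switched on before Dlx5 and Dlx6, and each pair lies side by side in the genome and shares enhancers. Lhx6 is a LIM homeobox factor of neurons from the medial ganglionic eminence, the source of many cortical interneurons. Gad1 and Gad2 encode the enzymes that make the transmitter GABA from glutamate, and they are used by GABAergic neurons throughout the brain, not only in the telencephalon.

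Library totals lay between 3239117 and 7371483 counts. The genotype labels were checked on Gtf2i, which was at 598 to 658 CPM (counts scaled to a common library size) in wt of the gtf2i cross, 363 to 375 CPM in gtf2i and 81.8 to 83.3 CPM in gtf2i/gtf2i. Gtf2ird1 RNA was at 90.4 to 114 CPM in wt of the ird1 cross, 147 to 151 CPM in ird1 and 219 to 227 CPM in ird1/ird1. It was also higher with Gtf2i mutated, at 84.1 to 97.9 CPM in wt of the gtf2i cross, 126 to 143 CPM in gtf2i and 245 to 286 CPM in gtf2i/gtf2i. By edgeR the Gtf2ird1 rise against wt was called in both doubled genotypes, with an adjusted p of 5.61e-07 in gtf2i/gtf2i and 3.92e-05 in ird1/ird1. The labels do not state what the ird1 allele does to its RNA, so this gives no check of a loss. All 13 pan-neuronal markers were in the table and summed to between 5325 and 7188 CPM over the 18 libraries.

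By the RefSeq genes of GRCm38.p6, Dlx1 lies at chr2:71528113-71533981 and Dlx2 at chr2:71543408-71546754, 9426 bases apart. Gad1 is on the same chromosome at chr2:70561303-70602014. Dlx6 lies at chr6:6863334-6867970 and Dlx5 at chr6:6877801-6882068, 9830 bases apart. Lhx6 is at chr2:36081950-36105992, Gad2 at chr2:22621015-22693877 and Gsx2 at chr5:75075601-75077893. The counts cover each gene as a whole, so no exon or isoform is resolved. The spans of 4 members overlap other annotated genes. Dlx1as, an antisense transcript, covers 3344 bases of Dlx1. Dlx6os1, also known as Evf2, covers all 4637 bases of Dlx6, and Dlx6os2 covers 1354 of them. Gad1os covers 2055 bases of Gad1, and the Mir3967 hairpin covers 68 bases of Gad2. The library kit named in the labels does not mark strand and the counting setting for strand is not given in the sources used here. Reads from these overlaps cannot be assigned to a strand, and the levels of Dlx1 and Dlx6 in particular are uncertain to that extent.

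RefSeq start regions were found for 6 members, in 8 windows of 250 bases before an annotated start. Dlx5 and Dlx6 had no entry. The windows of Dlx2 and Gsx2 lie outside the annotated gene and are shown whole, since Dlx2 is among the members that were lower in every gtf2i/gtf2i library than in wt, and Gsx2, which acts before it, is not. The 30-base stretches precede an annotated start but lie inside the annotated span of their gene, Lhx6 or Gad1. They are shown because they hold the motif hits, which are in capitals. All are written 5′ to 3′ on the gene's own strand.
Dlx2, chr2:71546755-71547004, minus strand: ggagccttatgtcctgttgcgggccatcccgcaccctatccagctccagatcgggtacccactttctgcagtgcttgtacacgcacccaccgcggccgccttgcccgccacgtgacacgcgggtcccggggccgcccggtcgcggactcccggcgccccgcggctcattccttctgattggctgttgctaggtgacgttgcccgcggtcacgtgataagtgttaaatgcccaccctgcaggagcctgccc
Gsx2, chr5:75075351-75075600, plus strand: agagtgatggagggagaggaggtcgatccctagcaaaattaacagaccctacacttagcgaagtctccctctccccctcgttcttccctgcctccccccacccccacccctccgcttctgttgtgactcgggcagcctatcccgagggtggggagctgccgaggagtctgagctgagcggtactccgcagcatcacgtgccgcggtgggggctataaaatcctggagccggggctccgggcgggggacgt
Lhx6, chr2:36105522-36105551, minus strand: cggtcgtcgccgCAGCTGgaaggggaggag
Lhx6, chr2:36105431-36105460, minus strand: cagccgcagaagCAGCTGcagggacctctc
Gad1, chr2:70561914-70561943, plus strand: tgagtgcattctGGATTActcataggactt

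The windows were searched on both strands for TAATTA, the core that many homeodomain factors such as the Dlx proteins bind, for CAGCTG, an E-box, and for GGATTA, a core bound by the Gtf2ird1 protein. TAATTA was in 0 of the 8 windows, against 4.84% of all 32851 windows of that length. CAGCTG was in 1 of them, the Lhx6 window above, 131 and 40 bases before the start, against 13% of all windows. GGATTA was in 1, that of Gad1, 203 bases before the start, against 6.25%. The CAGCTG and GGATTA hits lay in windows of different genes, so no hit position could be shared. The Dlx2 window was 66.4% G and C and the Gsx2 window 63.6%. These matches describe letters only and no binding was measured here.

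Levels between genes were compared per length, as CPM per kilobase of the transcript length in the deposited table. Dlx1 had the highest median over the 18 libraries, 46.5 CPM per kilobase, followed by Dlx2 at 44.6, and the ranges of the pair overlapped. Dlx5 followed at 22.9 CPM per kilobase, with every library below the lowest of Dlx1 and Dlx2 and a range that overlapped that of Gad2. Gad2 at 15.4, Lhx6 at 15.1 and Gad1 at 12.6 CPM per kilobase lay close together, with overlapping ranges. In every library Gad1 was above all values of Gsx2. Gsx2 at 6.23 and Dlx6 at 5.49 CPM per kilobase were lowest and also overlapped. The lowest counts give the largest counting errors, up to 17.1% for Gsx2 and 16.9% for Dlx6 in a single library, against 4.06% for Dlx1. They are errors of counting alone, because reads copied in amplification are not separate molecules.

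**Figure D1:**
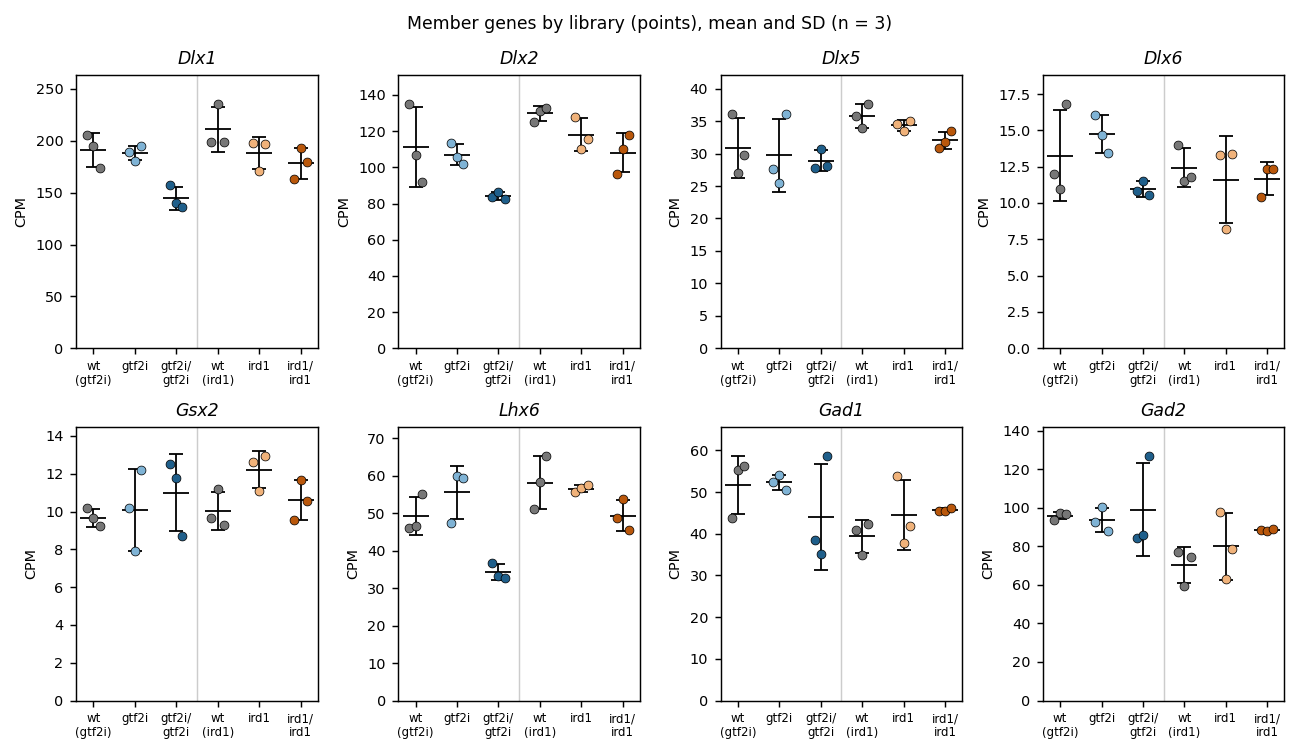
CPM of each member (vertical axes, from 0) in the 6 genotype groups (horizontal axes), with 1 point for each library and the mean and SD of the 3 libraries in black. Dlx1, Dlx2 and Lhx6 are lower in all 3 gtf2i/gtf2i libraries than in any wt library of that cross, while 1 gtf2i/gtf2i library has the highest Gad1 and Gad2 values of its cross.

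In gtf2i/gtf2i embryos 3 members, Dlx1, Dlx2 and Lhx6, were at lower levels in every library than in wt. Libraries of the remaining members, Dlx5, Dlx6, Gsx2, Gad1 and Gad2, overlapped those of wt. Dlx1 fell to 75.4% of wt, Dlx2 stood at 75.3% and Lhx6 at 69.1%, and only Dlx1 passed the threshold over all genes in the fit without pairing. For these 3 of the 8 genes all mutant libraries lay below all wt libraries, against 8.98% of all genes that were lower without overlap. By the quasi-likelihood test of edgeR, with p-values adjusted over all 11708 genes, 1 of 8 members was called at an adjusted p under 0.05, against 0.94% of all genes. The number that opens the sample titles was also used as a block, which pairs these libraries. With it edgeR called 3 members, Dlx1, Dlx2 and Lhx6, and 624 genes in all. The labels do not say what the number means, and the pairing was chosen from these same data. In whole brain RNA, fewer cells of a type and less RNA per cell cannot be told apart.

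Dlx1 was at 205, 195 and 174 CPM in the wt libraries of the gtf2i cross, at 189, 181 and 195 CPM in gtf2i and at 157, 140 and 136 CPM in gtf2i/gtf2i. The gtf2i/gtf2i libraries were below all 6 others of the cross. The wt mean was 191 ± 16 CPM and the gtf2i/gtf2i mean 145 ± 11.2 CPM (SD over 3 libraries each). The log2 fold change was -0.41 (SE 0.0868), with an edgeR adjusted p of 0.0414 and a 95% interval of 66.2% to 85.7% of wt. In this cross each title number is shared by 1 library of each genotype. Within these numbers the log2 difference in CPM was -0.55, -0.31 and -0.35. With the number as a block the edgeR adjusted p for Dlx1 was 0.00633. The call was lost without any single wt library or without gtf2i/gtf2i replicate 2, where the edgeR adjusted p was between 0.0711 and 0.185, and in a fit of only the groups compared (0.123).

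Dlx2, the neighbour of Dlx1 in the same cluster, was at 135, 107 and 91.9 CPM in wt and at 113, 106 and 102 CPM in gtf2i. In gtf2i/gtf2i it was at 83.5, 86.4 and 82.4 CPM. All gtf2i/gtf2i libraries were again below the others, but the wt libraries were widely spread, with an SD of 21.9 CPM around 111. The log2 fold change was -0.41 (SE 0.12, adjusted p 0.108 by edgeR). It passed the threshold with the title number as a block (adjusted p 0.0416 by edgeR). Without wt replicate 1, the highest of the wt libraries, the fold change was -0.25 (adjusted p 0.278 by edgeR). Within the numbers the log2 difference was -0.64, -0.36 and -0.16.

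Lhx6 was at 46, 46.7 and 55.2 CPM in wt, at 47.5, 59.9 and 59.5 CPM in gtf2i and at 36.8, 33.3 and 32.8 CPM in gtf2i/gtf2i. No gtf2i/gtf2i library reached the lowest of the others. The log2 fold change against wt was -0.53 (SE 0.123), with an interval of 57.5% to 82.9% of wt, the largest decrease among the members, and the edgeR adjusted p of 0.0576 missed the threshold. With the title number as a block it was 0.017, and without gtf2i/gtf2i replicate 3 it was 0.03. Lhx6 was also called with DESeq2 (adjusted p 0.0179), and by edgeR in a fit of all 18 libraries (adjusted p 0.023) and with a length trend removed (0.0333). Leaving out any other library gave an edgeR adjusted p between 0.0795 and 0.266, the highest without wt replicate 3, where the log2 fold change was -0.43. Against gtf2i, Lhx6 fell to 61.4%, a log2 fold change of -0.70 (SE 0.122, adjusted p 0.00925 by edgeR).

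The later Dlx pair was not called. Dlx5 was at 36, 27 and 29.7 CPM in wt and at 27.8, 30.7 and 28.1 CPM in gtf2i/gtf2i, and the groups overlapped. Its interval reached from 74.2% to 116% of wt (log2 fold change -0.11, SE 0.149, adjusted p 0.82 by edgeR), so the fitted decrease of Dlx1 lies just inside it. Without wt replicate 1 the Dlx5 value was 0.01. Dlx6 was at 12, 11 and 16.8 CPM in wt and at 10.8, 11.5 and 10.5 CPM in gtf2i/gtf2i, also overlapping (log2 fold change -0.30, SE 0.18, adjusted p 0.489 by edgeR). Its interval, 62% to 106% of wt, holds the fitted decrease of Dlx1 too. The Dlx6 value turned on wt replicate 3, the highest library, without which it was -0.07, while without wt replicate 2 it was -0.42. The antisense genes that overlap the clusters had log2 fold changes of -0.42 for Dlx1as (SE 0.207, adjusted p 0.384 by edgeR) and -0.38 for Dlx6os1 (SE 0.0989, adjusted p 0.0794 by edgeR). Dlx6os1 libraries did not overlap, with 81.7 to 93.7 CPM in wt and 63.5 to 68 CPM in gtf2i/gtf2i.

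Gsx2 was at 10.2, 9.63 and 9.23 CPM in wt and at 12.5, 11.8 and 8.7 CPM in gtf2i/gtf2i. Its groups overlapped, and the interval from 84.1% to 150% of wt (log2 fold change 0.17, SE 0.195, adjusted p 0.785 by edgeR) did not reach the fitted decrease of Dlx1. The Gsx2 value was 0.05 without gtf2i/gtf2i replicate 1 and 0.34 without replicate 3. The 2 genes' changes were not tested against each other.

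The enzyme genes turned on 1 library. Gad1 was at 43.7, 55.3 and 56.2 CPM in wt, at 52.3, 54.2 and 50.6 CPM in gtf2i and at 38.5, 35.1 and 58.6 CPM in gtf2i/gtf2i. Gad2 was at 93.9, 97.3 and 96.9 CPM in wt, at 92.9, 100 and 87.9 CPM in gtf2i and at 84.4, 86.1 and 127 CPM in gtf2i/gtf2i. For both genes gtf2i/gtf2i replicates 1 and 2 were below every wt and gtf2i library and replicate 3 was above every one. With all libraries the log2 fold change was -0.22 for Gad1 (SE 0.167, adjusted p 0.612 by edgeR) and 0.05 for Gad2 (SE 0.135, adjusted p 0.93 by edgeR). Without replicate 3 it was -0.49 for Gad1, which then passed the threshold (adjusted p 0.0242 by edgeR), and -0.17 for Gad2, which did not (adjusted p 0.283 by edgeR). The Gad1 value was -0.13 without gtf2i/gtf2i replicate 1 and -0.09 without replicate 2 (adjusted p 0.885 and 0.914 by edgeR). In the same library the 13 pan-neuronal markers summed to 7067 CPM, against 5325 and 5405 CPM in the other gtf2i/gtf2i libraries and 6443 to 7188 CPM in wt. Its 11 progenitor markers summed to 3248 CPM, against 3598 and 3719 CPM in the others and 2681 to 3071 CPM in wt. The part of these markers in the Gad values was not tested.

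Against gtf2i, 2 of 8 members were called in gtf2i/gtf2i, Dlx1 and Lhx6, both lower, against 3.12% of all genes. Libraries did not overlap for 4 of 8, all lower, namely Dlx1, Dlx2, Dlx6 and Lhx6, against 10% of all genes. Dlx1 was at 76.6% of gtf2i (log2 fold change -0.38, SE 0.0868, adjusted p 0.0308 by edgeR). The Dlx2 log2 difference was -0.35 (SE 0.12, adjusted p 0.141 by edgeR), called, among the alternatives run, only with the title number as a block and a length trend removed (adjusted p 0.0236 by edgeR), and that of Dlx6 -0.43 (SE 0.179, adjusted p 0.237 by edgeR). Neither call remained without gtf2i replicate 2 or without gtf2i replicate 3, where the Lhx6 adjusted p was 0.0629 and 0.0622. Without gtf2i replicate 1 or gtf2i/gtf2i replicate 2 the Dlx1 call was lost (0.0687 and 0.143). Without gtf2i/gtf2i replicate 3 Gad1 was called as well (adjusted p 0.0173 by edgeR). This comparison and the one with wt share the gtf2i/gtf2i libraries.

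In embryos with 1 gtf2i allele, 0 of 8 members were called, against 0.00854% of all genes, and 0 of 8 reached an unadjusted p under 0.05 by edgeR (1.6% of all genes). DESeq2 also called 0. Log2 fold changes against wt ranged from -0.06 for Dlx2 to 0.17 for Lhx6, and libraries did not overlap for 0 of 8, against 7.27% of all genes. The interval for Dlx1 was 86.6% to 112% of wt, which does not contain its gtf2i/gtf2i estimate of 75.4%. For Lhx6 it was 94.4% to 134%, above its gtf2i/gtf2i estimate of 69.1%.

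**Figure D2:**
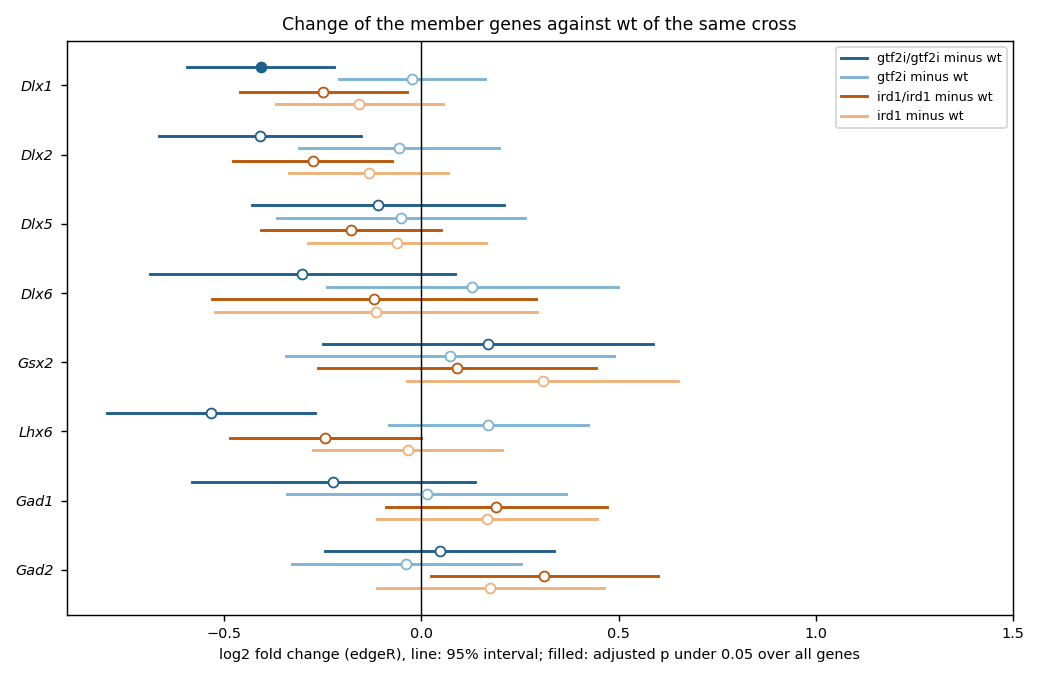
Log2 fold change of each member (horizontal axis) against wt of the same cross for the 4 mutant genotypes (colours), with 95% intervals from edgeR and filled circles for an adjusted p under 0.05 over all genes. Dlx1 in gtf2i/gtf2i, at -0.41, is the only filled circle. The intervals of Dlx2 and Lhx6 in gtf2i/gtf2i and of Dlx1, Dlx2 and Lhx6 in ird1/ird1 are also wholly below 0, and that of Gad2 in ird1/ird1 is wholly above.

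In ird1/ird1 embryos the members split, with Dlx1, Dlx2 and Dlx5 lower and Gad1 and Gad2 higher than wt without overlap, and none passed the threshold. The 3 of 8 lower ones compare with 11.8% of all genes and the 2 higher ones with 15.1%. By edgeR 0 of 8 were called, against 0.00854% of all genes, and 4 of 8 reached an unadjusted p under 0.05 (Dlx1, Dlx2, Lhx6 and Gad2), against 16.1% of all genes. DESeq2 called 0.

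Dlx1 was at 199, 236 and 199 CPM in wt of the ird1 cross and at 163, 193 and 179 CPM in ird1/ird1 (log2 fold change -0.25, SE 0.0993, adjusted p 0.296 by edgeR). Dlx2 was at 125, 131 and 133 CPM in wt and at 96.3, 110 and 118 CPM in ird1/ird1 (log2 fold change -0.28, SE 0.0948, adjusted p 0.296 by edgeR). Gad2 was at 76.9, 59.6 and 74.4 CPM in wt and at 88.5, 88.2 and 89.3 CPM in ird1/ird1. The ird1/ird1 libraries were above the wt libraries for Gad2 and almost equal to each other, with an SD of 0.537 CPM. The Gad2 log2 fold change was 0.31 (SE 0.135, adjusted p 0.301 by edgeR), and that of Gad1 was 0.19 (SE 0.131, adjusted p 0.422 by edgeR). Lhx6 overlapped, at 51.2, 58.2 and 65.3 CPM in wt and 48.7, 53.7 and 45.6 CPM in ird1/ird1 (log2 fold change -0.24, SE 0.114, adjusted p 0.308 by edgeR). Without wt replicate 3 the Lhx6 value was -0.14, and without wt replicate 2 that of Dlx1 was -0.16. Dlx5 had a log2 fold change of -0.18 (SE 0.107), Dlx6 of -0.12 (SE 0.193) and Gsx2 of 0.09 (SE 0.166). With a length trend removed the Dlx5 value was -0.05 and that of Gsx2 0.20, and leaving out 1 library gave 0.03 to 0.17 for Gsx2.

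The wt library with the lowest Gad1 and Gad2 in the ird1 cross, replicate 2, was also the library with the lowest total count and the highest Dlx1. It carries another title number than the remaining wt libraries. Within the number shared by the other 2 wt libraries the ird1/ird1 log2 difference was 0.22 for Gad2 and -0.16 for Dlx1, and within the number of replicate 2 it was 0.58 and -0.39, with 1 library a genotype.

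In embryos with 1 ird1 allele, 0 of 8 members were called by edgeR, against 0% of all genes, and 0 of 8 reached an unadjusted p under 0.05, against 3.02%. DESeq2 called 0 members. Libraries did not overlap for 1 of 8, Dlx1, which was lower at 198, 171 and 197 CPM, against 3.89% of all genes. Its log2 fold change was -0.16 (SE 0.0991, adjusted p 0.997 by edgeR), and it was -0.07 without wt replicate 2 and -0.10 without ird1 replicate 2. Gsx2 had the largest difference from wt, 0.31 on the log2 scale (SE 0.162, adjusted p 0.997 by edgeR), with overlapping libraries. Between ird1/ird1 and ird1, edgeR and DESeq2 called 0 of 8, against 0% of all genes by edgeR, and 0 reached an unadjusted p under 0.05, against 4.66%. Dlx5 and Lhx6 were lower without overlap, 2 of 8 against 8.54% of all genes.

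The effects of gtf2i/gtf2i and ird1/ird1, each against its own wt, were compared by the difference of the fold changes. By edgeR 0 of 8 members were called, against 0.171% of all genes, and 0 reached an unadjusted p under 0.05, against 13%. DESeq2 called 0. The smallest unadjusted edgeR p was that of Gad1, 0.0786 (adjusted p 0.425), with a difference of -0.42 (SE 0.227). For Lhx6 the difference was -0.29, with a 95% interval from -0.64 to 0.05, and for Dlx1 it was -0.16, from -0.44 to 0.11. The Lhx6 difference was -0.19 when wt replicate 3 of the gtf2i cross was left out. That of Dlx1 was -0.09 when ird1/ird1 replicate 2 was left out and -0.25 when this was done for wt replicate 2 in the ird1 cross. Without gtf2i/gtf2i replicate 3, Gad1 passed the threshold, with a difference of -0.68. Between the wt groups, Gad1 stood 0.38 higher on the log2 scale (SE 0.162, adjusted p 0.114 by edgeR) and Gad2 0.44 higher (SE 0.149, adjusted p 0.0765 by edgeR) in the gtf2i cross. These 2 of 8 were higher with no overlap, against 16.3% of all genes, and 0 of 8 were called, against 0% of all genes by edgeR, where 2 of 8 reached an unadjusted p under 0.05, against 32.7%. DESeq2 also called 0 members there. The crosses are confounded with their title numbers, so a difference between wt groups cannot be told apart from one between numbers.

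Among libraries of the same genotype, the enzyme genes moved together. With group means removed and labels permuted within groups, log2 CPM of Gad1 and Gad2 correlated with Pearson's r 0.9 over 18 libraries (permutation p 0.0016, adjusted over 28 pairs 0.0224) and Spearman's rho 0.895 (permutation p 0.00069, adjusted 0.00966). Without the 2 libraries farthest from the Gad1 median r was 0.789, and with the title numbers also removed it was 0.902. Dlx1 and Gsx2 correlated with r 0.731 (permutation p 7e-05, adjusted 0.00196) and rho 0.822 (permutation p 7e-05, adjusted 0.00196), with r 0.707 without the 2 farthest libraries and 0.601 with title numbers removed. None of the other 26 pairs passed the adjusted threshold, Dlx1 and Dlx2 included (r 0.574, permutation p 0.0392, adjusted 0.366). The genes of a library share its depth and dissection.

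**Figure D3:**
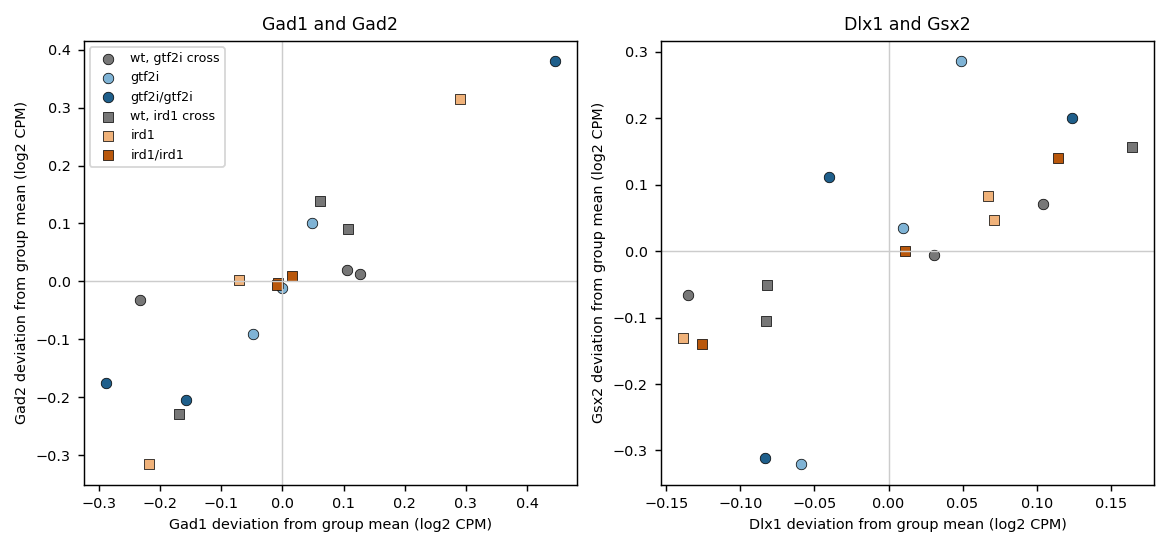
Deviation of log2 CPM from the group mean in each of the 18 libraries (circles for the gtf2i cross, squares for the ird1 cross) for Gad1 against Gad2 (left) and Dlx1 against Gsx2 (right). Points follow a rising line in both plots, with r 0.9 and 0.731, and gtf2i/gtf2i replicate 3 is the far upper right point on the left.

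The genes outside the 8 whose log2 CPM was most like the members' mean over the 18 libraries included Tbr1 (r 0.856), Bcl11b (0.809), Ntng1 (0.786) and Scrn1 (0.78). Tbr1 is a factor of glutamatergic cortical neurons, and Bcl11b is used by cortical and striatal neurons. With group means removed the 5 most alike were Ssx2ip (r 0.888), Pus7 (0.841), Alg1 (0.818), Zfp131 (0.812) and Sfpq (0.81). These values were picked as the highest among all genes and have no test.

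Related gene lists in gtf2i/gtf2i against wt are given by role. Of the 8 members 6 had a log2 fold change below 0, against 49.6% of all genes, and their median was -0.26, against 0.0016 over all genes. Among 16 ventral progenitor and patterning genes, such as the signal Shh and its receptor Ptch1, 0 were called by edgeR, 14 were above 0 and the median was 0.28. Against gtf2i, 3 of these rose, Shh by 1.20 (SE 0.212, adjusted p 0.0104 by edgeR), Ptch1 by 0.46 (SE 0.102, 0.0274) and Hes5, a Notch target, by 0.57 (SE 0.125, 0.0267). Shh was at 14.4 to 18.7 CPM in gtf2i/gtf2i, 6.28 to 7.51 CPM in gtf2i and 7.19 to 13 CPM in wt.

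Of 28 ventral lineage transcription factors and their partners, 25 were in the table and 1 was called, Bcl11b, which fell by 0.67 (SE 0.124, adjusted p 0.0206 by edgeR). The median was -0.09. Of 14 interneuron migration genes 0 were called against wt, with a median of -0.12. Against gtf2i the chemokine receptor Cxcr4 rose by 0.45 (SE 0.109, adjusted p 0.0397 by edgeR) and the plexin Plxna4 fell by 0.77 (SE 0.173, adjusted p 0.0308 by edgeR). Of 21 genes of GABA metabolism, transport and receptors, 16 were in the table, 0 were called, 14 were below 0 and the median was -0.20.

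Products of GABAergic subtypes had fold changes below 0 throughout. Of 11 listed 6 were in the table, all 6 were below 0, the median was -0.68 and 2 were called. Sst, the neuropeptide somatostatin of many neurons from the medial ganglionic eminence, fell by 0.78 (SE 0.166, adjusted p 0.0406 by edgeR), from 37.2 to 53.7 CPM in wt to 23.3 to 27 CPM in gtf2i/gtf2i. Reln, a secreted protein made at this age largely by Cajal-Retzius cells, which are not GABAergic, fell by 0.68 (SE 0.104, adjusted p 0.00697 by edgeR). Against gtf2i the calcium-binding protein gene Calb2 also fell, by 0.64 (SE 0.148, adjusted p 0.0324 by edgeR).

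Factors listed for GABAergic neurons outside the telencephalon had fold changes mostly above 0. The list is not specific to such neurons, so its values are no measure of them. Of 16 listed 14 were in the table, the median was 0.44 and 3 were called against wt. Pax3, of the dorsal midbrain and spinal cord, rose by 0.82 (SE 0.181, adjusted p 0.0485 by edgeR), Dmbx1 of the midbrain by 0.82 (SE 0.159, adjusted p 0.0274 by edgeR), and Bhlhe22, which is also used by cortical neurons, fell by 0.73 (SE 0.121, adjusted p 0.0114 by edgeR). Against gtf2i, 8 of the 14 rose, Pax3, Lhx5, Tal2 and Dmbx1 with the smallest p, and 1 fell. In that contrast 3.12% of all genes were called. In gtf2i against wt the same list lay the other way, with 0 called by edgeR, 13 of 14 below 0 (50.4% of all genes) and a median of -0.23. The median in gtf2i/gtf2i was 0.65 against gtf2i and 0.44 against wt. Pax3 rose by 1.15 (SE 0.185), Lhx5 by 0.66 (SE 0.0982), Tal2, a factor of midbrain GABAergic neurons, by 1.00 (SE 0.183) and Dmbx1 by 0.85 (SE 0.159). Gad1 and Gad2 are used by neurons inside and outside the telencephalon, and their sources were not separated here.

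**Figure D4:**
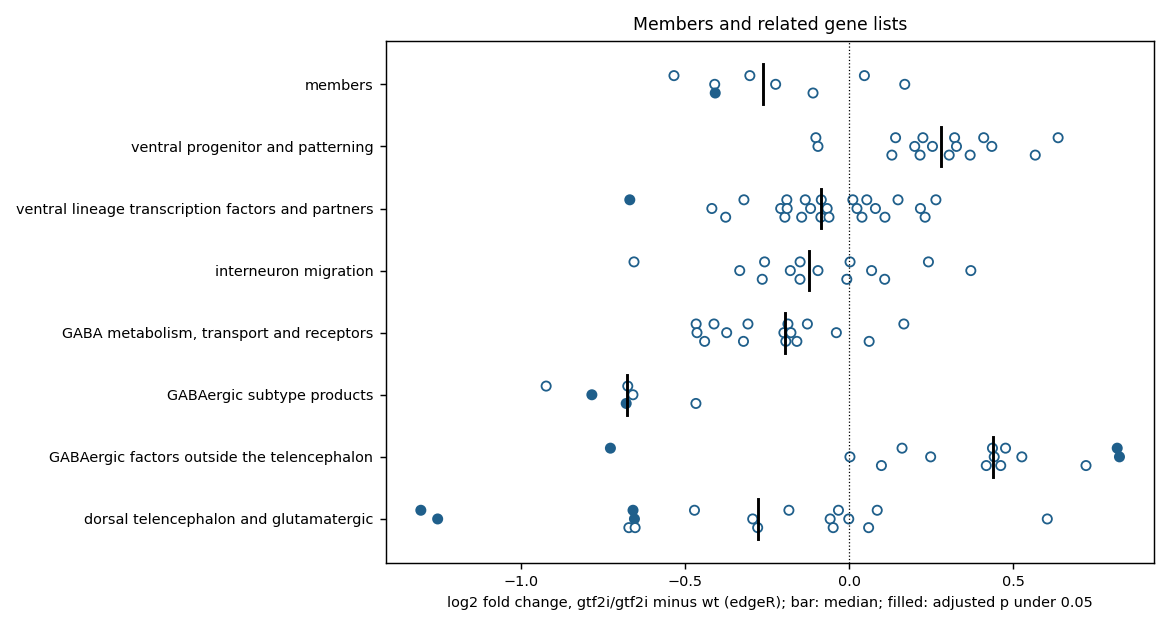
Log2 fold change of each gene in gtf2i/gtf2i against wt (horizontal axis) for the 8 members and 7 lists, with a bar at each list's median and filled circles for an edgeR adjusted p under 0.05. Subtype products lie wholly below 0 with a median of -0.68, and factors outside the telencephalon lie mostly above 0 with a median of 0.44.

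Of 17 genes of the dorsal telencephalon and its glutamatergic neurons, 4 fell (Neurod6, Neurod2, Tbr1 and Eomes), 14 were below 0 and the median was -0.28, so the ventral genes were not the only telencephalic genes at lower levels. Neurod6 fell by 1.30 (SE 0.149, adjusted p 0.000533 by edgeR) and Eomes by 0.66 (SE 0.133, adjusted p 0.034 by edgeR). Of the 3 dorsal genes above 0, Neurog1, a factor of progenitors, had the highest value, 0.60 (SE 0.179, adjusted p 0.115 by edgeR), with all gtf2i/gtf2i libraries above wt. Of 13 pan-neuronal genes 0 were called by edgeR, 11 were below 0 and the median was -0.21. Lower without overlap were 3 of them, against 8.98% of all genes. Of 11 progenitor genes 0 were called by edgeR, 8 were above 0 and the median was 0.08. Without overlap 5 were higher (7.82% of all genes) and 1 lower (8.98% of all genes). Of markers of other cells, 2 red blood cell genes of 8 in the table rose, Hbb-y and Slc4a1, and 1 choroid plexus gene of 4 fell, Ttr. Summed red blood cell markers were at 4091 to 5314 CPM in wt, 3796 to 4196 CPM in gtf2i and 5790 to 9184 CPM in gtf2i/gtf2i. Ttr was at 170 to 238 CPM in wt and 60.3 to 84.1 CPM in gtf2i/gtf2i. Of the other choroid plexus markers, Folr1 had a log2 fold change of 0.78 (SE 0.246, adjusted p 0.138 by edgeR) with all gtf2i/gtf2i libraries above wt, Otx2 of 0.22 and Clic6 of -0.10, and the median of the 4 was 0.06. Summed choroid plexus markers, mostly Ttr in wt, were at 259 to 346 CPM in wt and 175 to 208 CPM in gtf2i/gtf2i. Of 13 mesenchymal and meningeal genes 0 were called by edgeR against wt, 10 were above 0, 5 were higher without overlap (7.82% of all genes), 1 was lower without overlap (Dcn at -0.52) and the median was 0.28. They summed to 1421 to 1614 CPM in wt, 1332 to 1806 CPM in gtf2i and 1582 to 2379 CPM in gtf2i/gtf2i. Endothelial and microglial lists also had 0 genes called by edgeR against wt, with medians of 0.02 and 0.29 and all 4 microglial genes above 0. Against gtf2i, the contrast with the smallest adjusted p for Lhx6 and Dlx1, more of these genes were called by edgeR. Of all genes 3.12% were called in that contrast. There 5 of 8 red blood cell genes rose (Hbb-y, Slc4a1, Hba-x, Hba-a1 and Alas2), as did Slc2a1 of 13 endothelial, Lum of 13 mesenchymal and Nes and Vim of 11 progenitor genes. Mapt of 13 pan-neuronal genes, Ttr of the choroid plexus and 7 of 17 dorsal genes fell, the dorsal ones with a median of -0.32 over the list. The part of these cells in the members' values was not tested.

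In ird1/ird1 against wt, 0 genes of these lists were called by edgeR. The subtype products had a median of -0.21, the progenitor and patterning genes -0.10, the lineage factors 0.13 and the factors outside the telencephalon 0.08.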

How the data were processed

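The authors deposited raw counts of reads in whole numbers for 18 libraries of E13.5 whole brain and 11708 genes, together with a transcript length per gene. The submitters' processing notes name Trimmomatic, STAR and HTSeq and the build mm10, with no version. The deposited table holds genes above a minimum in every library. Per the labels' protocols, RNA was depleted of ribosomal RNA.

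After TMM scaling and filterByExpr, by which 0 genes were lost, the counts were tested with edgeR 4.0.16 in R 4.3.3 (glmQLFit and glmQLFTest), and p-values were adjusted by Benjamini-Hochberg over all genes. Genes whose adjusted p was under 0.05 are termed called. Contrasts within a cross used its 9 libraries, and those between crosses all 18. CPM are from TMM-scaled library sizes, and log2 CPM used a prior count of 2. Intervals are 95% per gene, not adjusted. An exact permutation test of 3 libraries against 3 cannot give a p below 0.1. Correlation p-values are two-sided, from 100000 permutations. Library totals were 3239117 to 7371483 counts, and libraries of a group differed by more than counting error, with a chi-square per degree of freedom of 2.9 to 29.5 between pairs. In simulated counts for gtf2i/gtf2i against wt over 11708 genes, 63% of 100 genes changed 1.5-fold and 96% of 100 changed 2-fold were called, and 6 of 11508 unchanged genes were. The simulated counts held no shift shared by the genes of a library. The fitted changes of all members in this contrast were smaller than 1.5-fold, a size that was not simulated.

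The members and gene lists were chosen with earlier results of these data known. Named genes were the members, Gtf2i, Gtf2ird1, Dlx1as, Dlx6os1, the genes of each list called in a contrast (the 4 with the smallest p where more were called), and the 5 most like the members' mean in each of 2 measures. Of the genes this rule gave, the text names those its comparisons turn on, and 1 item is not reported here. The number that opens the sample titles was taken as pairing gtf2i/gtf2i with wt, because deviations from the group means correlated at 0.377, 0.103 and 0.52 within the 3 numbers. The labels do not say what the number stands for, and 0.103 lies just above the cut of 0.1. The choice rests on these same data, and the block fit holds all 9 libraries of the cross, gtf2i included. Elsewhere numbers were not taken as pairing: in the gtf2i cross not every number passed 0.1, and in the ird1 cross 1 number alone had a single library of each genotype. Alternatives were other size factors, DESeq2 1.42.0, no filter, other samples in the fit, the title number as a block, a length trend removed and each library left out. Promoter windows came from RefSeq, GRCm38.p6.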

Additional observations from a re-analysis of the deposited data

How the results depend on the processing

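Of 912 alternative fits of the 64 member results, 849 kept direction and side of the threshold, 11 lost a call, 13 gained one and 39 changed sign, none of the last called and none beyond 0.172 on the log2 scale. The cause of these changes was not tested. In gtf2i/gtf2i against wt, 1 member and 110 genes were called, and DESeq2 gave 2 and 310, a fit of the compared groups 0 and 31, all 18 libraries 2 and 262, the replicate block by title number 3 and 624, length correction 2 and 293, and the block plus length correction 3 and 845. Leaving out 1 library gave 0 to 3 members and 28 to 1159 genes. Against gtf2i, 2 members and 365 genes were called, with 892 genes under the block and 1097 when length was corrected too, and 0 to 3 members and 67 to 1376 genes with 1 library left out. In gtf2i against wt the 1 gene became 6 with DESeq2, 5 in a fit of the compared groups, 3 in a fit of 18 libraries, 2 with the block and 5 under block plus length correction. In ird1 against wt, 0 genes became 1 with DESeq2 and 1 in a fit of 18 libraries, and 0 to 1 with 1 library left out. In ird1/ird1 against ird1, 0 became 1 with DESeq2, 1 in a fit of the compared groups and 1 in a fit of 18 libraries. For the difference of effects, 20 genes became 84 with DESeq2, 83 with the block, 33 after length correction and 77 under both, and 12 to 723 with 1 library left out, where 0 to 1 members were called. Between wt groups, 0 became 1069 with DESeq2 and 0 to 2076 with 1 library left out, with 0 to 1 members, Dlx2 without wt replicate 1 of the gtf2i cross. No paired analysis was possible because title numbers lie within a cross for the wt groups. In the ird1 cross and the other contrasts of the gtf2i cross, the block alone changed the call of no member. With length corrected too, Dlx2 was also called against gtf2i (adjusted p 0.0236 by edgeR), making 3 members.

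Signs changed without a call as follows. For ird1/ird1 against ird1, Dlx6 was at 0.0059 in a fit of 18 libraries, 0.040 after length correction and 0.045 with the block as well. For the difference of effects, Dlx5 was at -0.060 after length correction and -0.050 with the block as well, and Gsx2 at -0.034 and -0.039. Between wt groups Gsx2 was at 0.11 after length correction. With 1 library left out, log2 values ran from -0.19 to 0.011 for Dlx5 and -0.17 to 0.16 for Gad2 in gtf2i/gtf2i against wt. In gtf2i against wt they ran from -0.088 to 0.030 for Dlx1, -0.18 to 0.11 for Dlx2, -0.22 to 0.070 for Dlx5, -0.094 to 0.082 for Gad1, -0.090 to 0.0094 for Gad2 and -0.094 to 0.21 for Gsx2. In gtf2i/gtf2i against gtf2i they ran from -0.045 to 0.27 for Gsx2, -0.16 to 0.12 for Dlx5 and -0.14 to 0.19 for Gad2. In the ird1 cross they ran from -0.16 to 0.0050 for Dlx6 in ird1/ird1 and from -0.22 to 0.072 for Dlx6 and -0.12 to 0.061 for Lhx6 in ird1, each against wt, and from -0.19 to 0.11 for Dlx6 and -0.072 to 0.19 for Gad1 between these genotypes. For the difference of effects they ran from -0.25 to 0.026 for Dlx2, -0.019 to 0.19 for Dlx5, -0.30 to 0.049 for Dlx6 and -0.044 to 0.24 for Gsx2, and between wt groups from -0.13 to 0.21 for Dlx6 and -0.082 to 0.034 for Gsx2. Counting error in a single library reached 17.1% for Gsx2 and 16.9% for Dlx6, against 4.06% for Dlx1.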
